A study of Mus musculus with 15 samples.

Results

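Nutlin-3a and 10058F4 were compared with each other in M2 macrophages, using the 3 arrays of M2 cells given nutlin-3a and the 3 arrays of M2 cells given 10058F4, chosen by their sample titles from 15 arrays in all. Macrophages were grown from mouse bone marrow for 7 days with M-CSF, the growth factor of the macrophage lineage, and all 6 cultures were polarized with the cytokines IL-4 and IL-13, which give the M2 state. The other 9 arrays were M2 cells without an agent, untreated M0 cells and M1 cells given LPS with interferon-gamma, 3 arrays each, and 18193 genes had a probe set of their own. No source used here gives the mice's strain, sex or age, or the dose, time and vehicle of each agent, so whether the agents were matched in dose or time cannot be told. The labels call the arrays biological replicates without saying what separates them, so p-values measure only how far these samples spread, and that spread may be technical.

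Nutlin-3a occupies the pocket of MDM2 that holds p53. MDM2 is the ubiquitin ligase that keeps p53 scarce, so the drug lets p53 accumulate and switch on its target genes, which arrest the cell cycle, repair DNA or start cell death. 10058F4 acts on the other regulator: it keeps the transcription factor MYC from pairing with MAX, the partner that MYC needs to bind DNA. MYC drives growth, ribosome production and cell division, and IL-4 is known to raise it in human macrophages. The series title places p53 in polarized macrophages at the centre of the study. Setting the agents against each other asks where releasing p53 and blocking MYC leave M2 cells with different transcripts. Each difference between the agents is free of the M2 control arrays, but its standard error and p-value use the spread over all 15 arrays.

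Values are log2 expression after RMA, so a difference of 1 is 2-fold, and every difference is nutlin-3a minus 10058F4 unless stated. A gene was called at an adjusted p under 0.05 in limma's linear model, which did not pair arrays by replicate number. Errors of differences are standard errors (SE) of that fit. Of 13703 genes that passed the filter on low values, 581 (4.24%) were higher with nutlin-3a and 373 (2.72%) were lower, 954 (6.96%) in all. Most differences were small, with a median size of 0.46 among called genes. At 2-fold or more, 67 genes (0.489%) were higher and 70 (0.511%) lower, and at 4-fold or more 9 were higher and 4 lower. For 13332 genes (97.3%) the 95% interval of the difference lay within 2-fold in both directions. The 3 arrays of one agent lay wholly above or below those of the other for 4390 genes (32.0%), of which 950 were also called. Against M2 cells without an agent, 2112 genes (15.4%; 9.56% higher and 5.85% lower) were called with nutlin-3a and 2858 (20.9%; 10.6% higher and 10.2% lower) with 10058F4. Those comparisons share the 3 M2 arrays and serve below as side-by-side values for single genes and some lists. With 1 array left out, 339 (without nutlin-3a replicate 2) to 464 genes were called higher and 213 (without 10058F4 replicate 1) to 258 lower.

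The arrays of each agent resembled each other closely. Across probe sets, r was 0.9963 to 0.997 within nutlin-3a, 0.9973 to 0.9974 within 10058F4 and 0.9941 to 0.9948 between the agents. For RNA integrity, beta-actin signal at the 3' end less that at the 5' end of the transcript averaged 0.453 with nutlin-3a and 0.489 with 10058F4 (exact permutation p = 0.3, two-sided, where 3 against 3 cannot go below 0.1). Macrophage identity genes were abundant with both agents: Csf1r, the M-CSF receptor, read 13.82, 13.73 and 13.79 with nutlin-3a and 13.80, 13.75 and 13.79 with 10058F4. Of 45 tested markers of dendritic, T, NK, B, neutrophil, mast, stromal and erythroid cells none was called in limma (2 had an unadjusted p under 0.05), against 6.96% over all tested genes. Of the 63 with a probe set, 20 lay at or under the filter level on all 6 arrays. The mean over those 63 markers was 4.85 to 4.89 on the nutlin-3a arrays and 4.88 to 4.95 on the 10058F4 arrays. That mean lay near the filter level of 4.34 to 4.52, but some single markers were well above this level with both agents. The neutrophil marker Csf3r read 9.36, 9.23 and 9.31 with nutlin-3a and 9.05, 8.97 and 8.97 with 10058F4. S100a8, also a neutrophil marker, averaged 7.42 with nutlin-3a and 7.54 with 10058F4, and the erythroid marker Epor 6.08 and 6.47.

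Many p53 target genes were higher with nutlin-3a. Of 63 tested genes on 4 lists of p53 feedback genes and targets, 31 were called higher and none lower, against 4.24% higher over all tested genes, and their median difference was 0.45 against 0.01 for all genes. The split was 6 of 11 for genes that act back on p53, 8 of 18 for growth arrest, 7 of 12 for cell death and 10 of 22 for DNA repair and metabolism. No array decided these counts: with any 1 array left out they were 6, 7 to 8, 7, and 9 to 11, and 1 cell death target was called lower without nutlin-3a replicate 3. With the replicate number as a block over 15 arrays they were 6, 8, 8 and 12, and 1 cell death target and 1 repair or metabolism target were called lower. Trp53, the p53 gene, was not analysed here.

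Mdm2, the gene whose product nutlin-3a binds and itself a p53 target, read 11.14, 11.15 and 11.24 on the nutlin-3a arrays and 9.40, 9.37 and 9.50 on the 10058F4 arrays. Every nutlin-3a array lay far above every 10058F4 array, and the difference was 3.36-fold (log2 difference 1.75, SE 0.09, adjusted p = 2.8e-08). In M2 cells without an agent Mdm2 read 9.19 ± 0.11 (SD, n = 3), from which nutlin-3a differed by 1.99 (adjusted p = 7.7e-09) and 10058F4 by 0.24 (adjusted p = 0.081). Mdm4, the partner of MDM2 in restraining p53, was also higher (1.01, adjusted p = 1.5e-05). Ccng1, cyclin G1, which recruits a phosphatase to MDM2, read 12.15, 11.95 and 12 against 10.51, 10.46 and 10.50 (log2 difference 1.54, SE 0.06, adjusted p = 1.6e-09). Zmat3, a zinc finger RNA-binding protein under p53, read 10.37, 10.38 and 10.27 against 7.38, 7.61 and 7.43, 7.29-fold higher (log2 difference 2.87, SE 0.08, adjusted p = 5.8e-11). For both genes the arrays of the agents lay far apart.

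Trp53inp1, which binds p53 and promotes its activity on death genes, was above M2 cells with both agents. It read 12.11, 11.83 and 11.99 with nutlin-3a, 11.07, 10.74 and 10.93 with 10058F4 and 9.78 ± 0.10 in M2 cells. Its difference from M2 cells was 2.20 with nutlin-3a (adjusted p = 2.5e-08) and 1.14 with 10058F4 (adjusted p = 8.4e-06), and nutlin-3a stood 1.06 above 10058F4 (adjusted p = 3.5e-05). Rchy1, another ubiquitin ligase for p53, was 0.47 higher (adjusted p = 0.00038). The 5 feedback genes not called were Pidd1 (0.18), Ppm1d (0.0), Trp73 (-0.15), Cop1 (-0.18) and Jmy (-0.41).

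Among growth arrest genes, Cdkn1a, which encodes the cyclin-dependent kinase inhibitor p21, had the largest difference. It read 12.48, 12.42 and 12.43 with nutlin-3a and 9.94, 10.11 and 9.95 with 10058F4, 5.45-fold apart (log2 difference 2.45, SE 0.06, adjusted p = 3.1e-11). The M2 level of 10.75 ± 0.07 (SD, n = 3) lay between: nutlin-3a was 1.7 above it (adjusted p = 1.1e-09), and 10058F4 had a difference of -0.75 from it (adjusted p = 2.2e-06). Btg2, an antiproliferative protein, had the same arrangement, at 8.74, 8.58 and 8.69 with nutlin-3a, 7.58, 7.44 and 7.60 with 10058F4 and 8.24 in M2 cells (log2 difference 1.13, SE 0.12, adjusted p = 2.8e-05). Plk2, a polo-like kinase, read 10.08, 9.70 and 9.93 against 8.82, 8.71 and 8.69 (log2 difference 1.16, SE 0.16, adjusted p = 0.00029). With nutlin-3a it was 0.12 from M2 cells (adjusted p = 0.65), and with 10058F4 -1.04 (adjusted p = 0.00028). A second Plk2 probe set differed by -0.06 and was not called. Gtse1, a microtubule-binding protein of G2 phase that restrains p53, was 1.72 higher (SE 0.17, adjusted p = 2e-05). The remaining called members were Sesn2 (1.07), Pml (0.78), Gadd45a (0.59) and Gadd45b (0.54).

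The cell death targets that were higher act at several steps of apoptosis. Phlda3, which keeps the survival kinase AKT from the membrane, read 10.07, 10.13 and 10.13 with nutlin-3a and 6.83, 6.92 and 6.91 with 10058F4, a 9.33-fold difference (log2 difference 3.22, SE 0.12, adjusted p = 4.8e-10). Its 10058F4 level was -0.09 from M2 cells (adjusted p = 0.64). Pmaip1 and Bbc3, which encode the BH3-only proteins NOXA and PUMA, also stood apart. Pmaip1 read 8.43, 8.47 and 8.48 against 6.79, 6.87 and 6.94 (log2 difference 1.60, SE 0.09, adjusted p = 6.4e-08), and Bbc3 read 7.74, 7.98 and 7.89 against 6.80, 6.64 and 6.79 (log2 difference 1.13, SE 0.11, adjusted p = 9.3e-06). The nuclease gene Aen (1.37, adjusted p = 3.8e-08), the death receptor Fas (1.11, adjusted p = 0.0003), Ei24 (0.88, adjusted p = 1e-06) and the caspase activator Apaf1 (0.45, adjusted p = 0.00041) completed the called members. In the wider BCL2 family 1 of 12 tested genes was called, against 6.96% over all tested genes. It was the survival gene Bcl2l2 (log2 difference 0.33, SE 0.08, adjusted p = 0.014), and its call ended without nutlin-3a replicate 3, 10058F4 replicate 1 or 10058F4 replicate 3 (adjusted p up to 0.073). All 12 intervals lay within 2-fold.

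Among repair and metabolic targets, Ak1, an adenylate kinase, read 8.30, 8.28 and 8.12 with nutlin-3a and 5.78, 6.06 and 5.91 with 10058F4 (log2 difference 2.31, SE 0.14, adjusted p = 1.4e-07). Slc19a2, a thiamine transporter, read 9.93, 9.93 and 9.91 against 7.84, 7.90 and 7.64 (log2 difference 2.13, SE 0.08, adjusted p = 7.7e-10). The translesion polymerase Polk was 1.24 higher (adjusted p = 8.1e-08), the sugar reductase Dcxr 1.24 (adjusted p = 7.3e-08) and the glutamate cyclase Dglucy 1.48 (adjusted p = 0.00087). Smaller differences were those of Mgmt, which removes alkyl groups from guanine (0.70), and the excision repair nuclease Ercc5 (0.49), and Cpt1c (1.04, at or near the filter level with 10058F4), Ptp4a3 (0.73) and Abhd4 (0.56) were called as well. Targets such as Ddb2 (0.20, adjusted p = 0.2), Rrm2b (0.09, adjusted p = 0.53), Xpc (-0.14, adjusted p = 0.48) and Polh (-0.38, adjusted p = 0.056) were not called.

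A p53 response element was looked for in the promoters of the genes that were at least 2-fold higher. The consensus is 20 bases, 2 copies of a palindromic 10-base motif without a spacer, and reads the same on both strands; 1 mismatch was allowed. RefSeq promoter windows of GRCm38.p6, from 250 bases before to 50 after a start, were found for 56 of the 67 genes at least 2-fold higher with nutlin-3a. The element was in 3 of those 56 (5.36%), namely Ccng1, Cdkn1a and Gtse1, and in 10 of 11053 tested genes with a window (0.0905%). A stretch is shown only where the match lies wholly before the start site, with its leading bases inside the window. The Cdkn1a and Ccng1 matches met this and that of Gtse1 did not. In each stretch the 20 bases of the match are in capitals. Any RefSeq start of a gene could give a window, so the start site named need not be the gene's main start. Cdkn1a lies at chr17:29090913-29090962 on the plus strand, and its match starts 51 bases before the start site of its window. Ccng1 lies at chr11:40755447-40755496 on the minus strand, and its match starts 195 bases before the start site of its window. Each has 1 mismatch, and a match is a description of the sequence, not a site shown to be bound.
Cdkn1a: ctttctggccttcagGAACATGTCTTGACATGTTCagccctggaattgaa
Ccng1: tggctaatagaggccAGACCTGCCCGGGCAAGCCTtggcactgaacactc

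**Figure D1:**
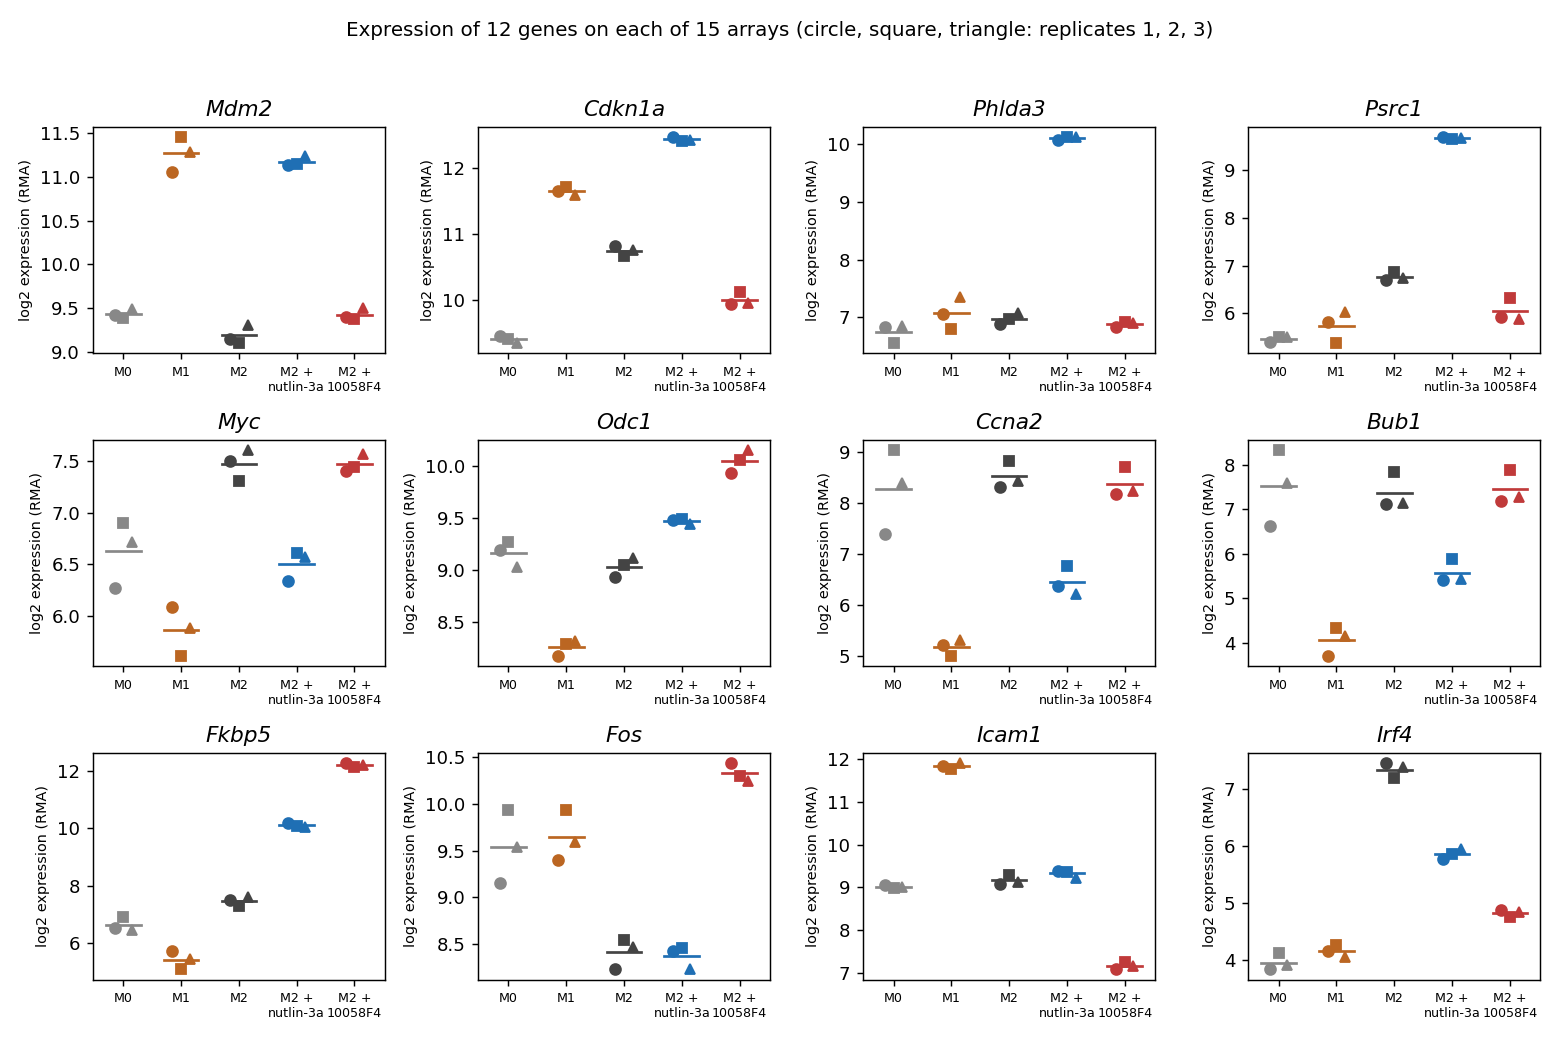
Log2 expression (RMA) of 12 genes on each of the 15 arrays, by group; circles, squares and triangles are replicates 1, 2 and 3 and the bar is the group mean. The top row shows the p53 targets Mdm2, Cdkn1a and Phlda3 with Psrc1, for which the 3 nutlin-3a arrays lie above the 3 10058F4 arrays (Mdm2 at 11.14 to 11.24 against 9.37 to 9.50); Myc, Odc1, Ccna2, Bub1, Fkbp5 and Fos have the opposite order, and Icam1 and Irf4 are lowest with 10058F4 among the 3 M2 groups.

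The 15 largest rises by the naming rule included 7 genes on the p53 lists and 8 others. Psrc1, a microtubule-associated protein of the spindle, had the largest: 9.70, 9.66 and 9.67 with nutlin-3a against 5.93, 6.32 and 5.89 with 10058F4, 12.4-fold (log2 difference 3.63, SE 0.14, adjusted p = 7.7e-10). Its M2 level was 6.76, from which 10058F4 differed by -0.72 (adjusted p = 0.0021). The 2 other probe sets of Psrc1 were called in the same direction with much smaller differences, 0.68 and 1.27. Pvt1, a long noncoding RNA gene that neighbours Myc, read 7.85, 7.91 and 7.58 against 5.85, 5.92 and 5.77 (log2 difference 1.93, SE 0.13, adjusted p = 3.5e-07). Ddias, an inhibitor of DNA damage-induced apoptosis, was 1.89 higher (adjusted p = 0.0001), Kank3 1.92 (adjusted p = 2.5e-07) and the nuclear pore gene Aaas 1.71 (adjusted p = 2.2e-08). One gene outside the naming rule, 9230114K14Rik, was singled out after its values were seen: it read 8.29, 8.28 and 7.86 with nutlin-3a and 4.53, 4.47 and 4.28 with 10058F4, the largest difference of any tested gene (log2 difference 3.72, SE 0.14, adjusted p = 7.6e-10), and 1 of its 10058F4 arrays lay below the filter level.

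For Plau, Icam1 and Enc1, also among the 15, 10058F4 lay well below M2 cells. Icam1, the adhesion molecule that binds leukocyte integrins, read 9.39, 9.36 and 9.23 with nutlin-3a and 7.08, 7.26 and 7.15 with 10058F4 (log2 difference 2.16, SE 0.07, adjusted p = 3.7e-10). Nutlin-3a was 0.16 from the M2 level of 9.16 (adjusted p = 0.17), and 10058F4 was -2.0 from it (adjusted p = 6.3e-10). Plau, the urokinase that activates plasminogen, read 9.0, 9.11 and 9.22 against 6.31, 6.49 and 6.40 (log2 difference 2.71, SE 0.22, adjusted p = 2.1e-06), with nutlin-3a 0.95 and 10058F4 -1.76 from M2 cells (adjusted p = 0.0092 and 5.5e-05). Enc1, an actin-binding kelch protein, was below M2 cells with both agents, with differences of -0.65 and -2.36 (adjusted p = 0.02 and 3.9e-07), and 1.71 higher with nutlin-3a than with 10058F4 (adjusted p = 1.9e-05). All 15 rises were called with any 1 array left out.

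**Figure D2:**
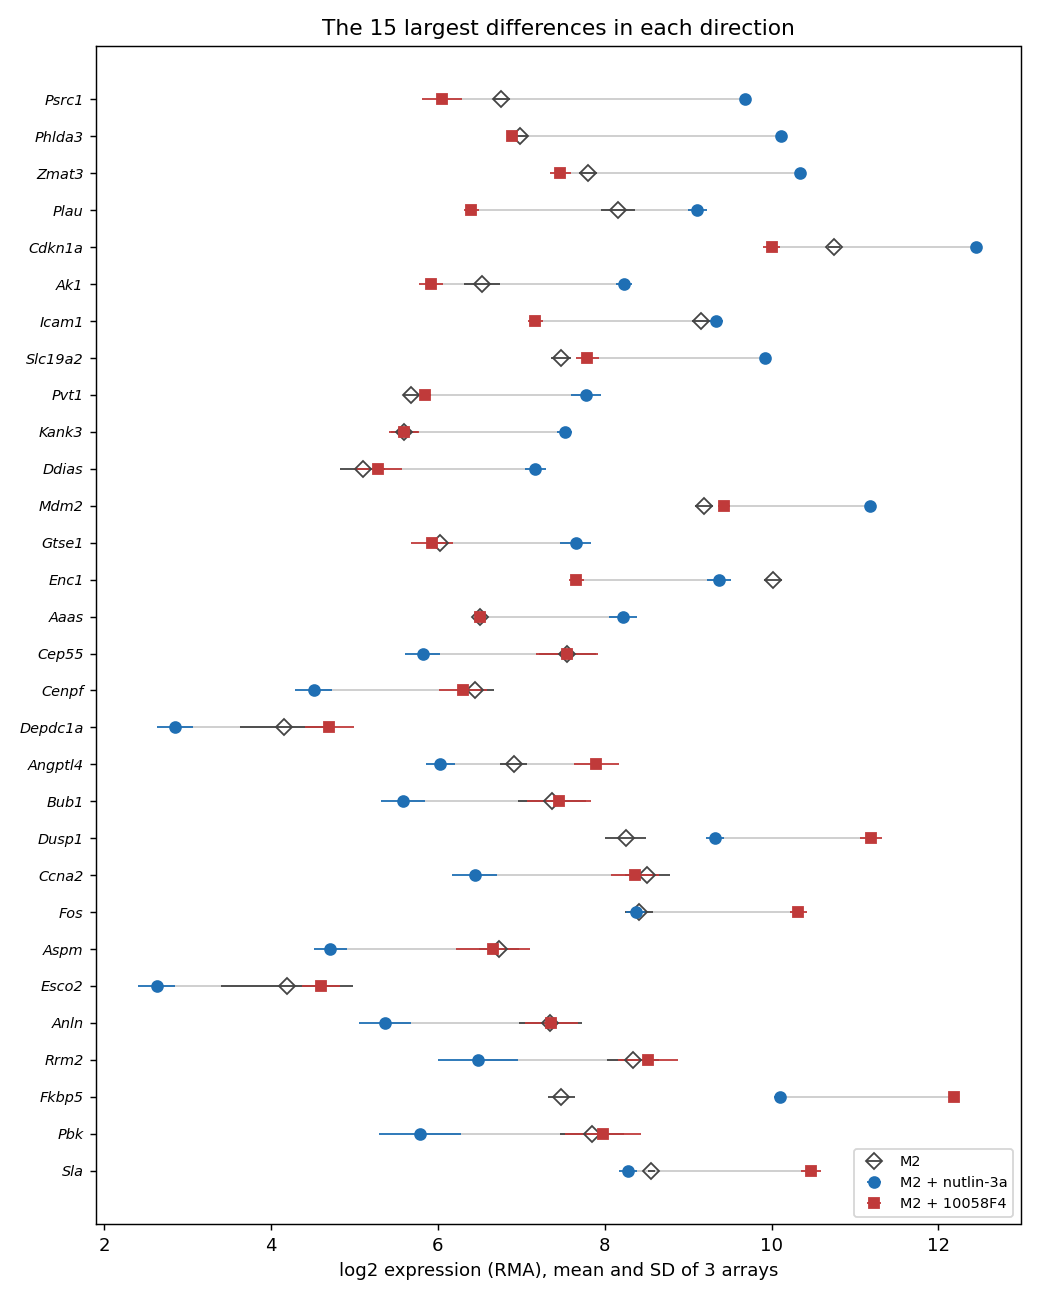
Mean log2 expression (RMA) with its SD over 3 arrays for the 15 named rises and 15 named falls of nutlin-3a relative to 10058F4, in M2 cells without an agent (open diamonds), with nutlin-3a (circles) and with 10058F4 (squares). For Phlda3 and Mdm2 the M2 mean lies beside that of 10058F4, for Icam1 (9.16 in M2 cells) beside that of nutlin-3a, and for Fkbp5 and Dusp1 below both agents.

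Most tested genes of mitosis were lower with nutlin-3a than with 10058F4. Of 31 tested, 18 were called lower and none higher, against 2.72% lower over all tested genes, and the median difference was -1.07. The mean over these 31 genes was 6.24, 6.65 and 6.31 on the 3 nutlin-3a arrays and 7.26, 7.74 and 7.31 on the 3 10058F4 arrays, so every nutlin-3a array was below every 10058F4 array, and replicate 2 was the highest with each agent and in M2 cells (7.28, 7.74 and 7.33). The median difference from M2 cells was -1.05 with nutlin-3a, where 23 genes were called lower, and -0.03 with 10058F4, where limma called none (1 had an unadjusted p under 0.05). In RNA from a whole culture, fewer cells of a type and less RNA per cell cannot be told apart, so these values do not say whether fewer cells were dividing or dividing cells held less of each transcript.

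Ccna2, cyclin A2, read 6.37, 6.75 and 6.21 with nutlin-3a and 8.17, 8.69 and 8.22 with 10058F4 (log2 difference -1.92, SE 0.31, adjusted p = 0.0012). The kinetochore checkpoint kinase Bub1 read 5.42, 5.88 and 5.43 against 7.19, 7.89 and 7.28 (log2 difference -1.87, SE 0.35, adjusted p = 0.0037), and the spindle protein Nusap1 6.03, 6.91 and 6.50 against 7.98, 8.68 and 7.87 (log2 difference -1.69, SE 0.35, adjusted p = 0.0079). In each the groups did not overlap, and 10058F4 differed from M2 cells by -0.15, 0.09 and 0.02 (adjusted p = 0.78, 0.9 and 0.98). Other called members were the kinesins Kif20a (-1.61) and Kif11 (-1.33), the midzone protein Prc1 (-1.50), the kinases Ttk (-1.48), Nek2 (-1.19), Plk1 (-1.15), Aurkb (-1.07) and Aurka (-1.01), survivin (Birc5, -1.47), the anaphase activator Cdc20 (-1.34), the topoisomerase Top2a (-1.32), Racgap1 (-1.10), Bub1b (-0.75) and the phosphatase Cdc25b (-0.59). Without a replicate block, Cdk1 (-0.73, adjusted p = 0.084), Mki67 (-0.78, adjusted p = 0.074) and Foxm1 (-0.29, adjusted p = 0.22) were not called. Cenpa was the one member with a positive difference (0.19, adjusted p = 0.71).

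The largest falls held further cell division genes. Pbk, a mitotic kinase, read 5.45, 6.34 and 5.57 with nutlin-3a against 7.74, 8.51 and 7.68 (log2 difference -2.19, SE 0.43, adjusted p = 0.0064), Anln, the scaffold of the cleavage furrow, 5.16, 5.73 and 5.22 against 7.11, 7.73 and 7.23 (log2 difference -1.99, SE 0.34, adjusted p = 0.0022), and Aspm, a spindle pole protein, 4.55, 4.94 and 4.65 against 6.48, 7.16 and 6.33 (log2 difference -1.94, SE 0.33, adjusted p = 0.002). The abscission protein Cep55 had a difference of -1.73 (adjusted p = 0.002). Esco2, a cohesin acetyltransferase, read 2.67, 2.82 and 2.39 with nutlin-3a and Depdc1a read 2.79, 3.10 and 2.67, below the filter level on all 3 arrays, and the kinetochore protein Cenpf lay below it on 1 of 3, so their differences of -1.98, -1.85 and -1.79 are not exact sizes. The Esco2 call ended whichever array was left out (adjusted p up to 0.099), while the other 14 of the 15 largest falls were called with any 1 array left out.

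The number of mitosis genes called depended on how the spread between replicates was treated. With 1 array left out it was 7 without nutlin-3a replicate 1, 15 without replicate 2 and 7 without replicate 3, and 14, 6 and 13 without 10058F4 replicates 1, 2 and 3. With the 6 arrays alone it was 26. With the replicate number as a block it was 25 over 15 arrays and 29 over 6 arrays, and all 31 genes had the same sign in the 3 same-numbered pairs, whose medians were -1.03, -1.03 and -1.01. The main fit also takes in the spread of the M0 arrays, where Ccna2, Bub1 and Nusap1 had SDs of 0.83, 0.86 and 0.80. Their SDs were 0.27, 0.26 and 0.44 with nutlin-3a and 0.29, 0.38 and 0.44 with 10058F4. With only probe sets whose suffix marks them as specific, 10 of 23 tested were called.

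The promoters of mitosis genes are known for the cell cycle genes homology region, TTTGAA, through which the DREAM complex represses them. On either strand these letters were in the windows of 10 of 15 called mitosis genes with a window (66.7%), 17 of 25 tested mitosis genes whether called or not (68%), 26 of 55 genes at least 2-fold lower with nutlin-3a (47.3%) and 1582 of 11053 tested genes (14.3%). Stretches of 4 called genes are shown, with the match or its reverse complement TTCAAA in capitals, to set a gene with 2 matches (Top2a) beside genes with 1 in the part of the window shown. All are GRCm38.p6: Cdc20 at chr4:118437344-118437378 (minus strand), Top2a at chr11:99024346-99024385 and chr11:99024190-99024229 (minus strand), Kif11 at chr19:37376346-37376381 (plus strand) and Prc1 at chr7:80294429-80294468 (plus strand). The matches start 18 bases before the start of the window's transcript in Cdc20, 179 and 23 in Top2a, 19 in Kif11 and 30 in Prc1. As above, that start need not be the gene's main start.
Cdc20: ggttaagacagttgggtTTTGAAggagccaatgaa
Top2a: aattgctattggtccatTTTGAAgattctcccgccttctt
Top2a: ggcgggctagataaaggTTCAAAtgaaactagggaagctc
Kif11: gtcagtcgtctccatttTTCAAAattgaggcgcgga
Prc1: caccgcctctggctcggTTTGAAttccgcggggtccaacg

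Of 30 tested genes of DNA replication, 2 were called lower with nutlin-3a and none higher, against 2.72% lower and 4.24% higher over all tested genes, with a median of -0.22. Rrm2, the subunit of ribonucleotide reductase that rises for DNA synthesis, read 6.11, 7.02 and 6.31 with nutlin-3a and 8.31, 8.93 and 8.33 with 10058F4 (log2 difference -2.04, SE 0.40, adjusted p = 0.006). The origin recognition gene Orc1 read 5.31, 5.12 and 5.15 against 5.49, 5.46 and 5.53 (log2 difference -0.30, SE 0.08, adjusted p = 0.03), a call that ended with 5 of the 6 arrays left out in turn (adjusted p up to 0.13). The helicase subunits Mcm2 to Mcm7 had differences of -0.20, -0.23, -0.25, -0.25, -0.30 and -0.49, none of them called without a replicate block, and the clamp Pcna of 0.01. The list mean was 7.0, 7.19 and 7.06 with nutlin-3a and 7.31, 7.50 and 7.30 with 10058F4, again without overlap. With the replicate number as a block, 4 of 30 were called lower over 15 arrays and 13 over 6 arrays.

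Of 24 genes that control entry into S phase, 2 were higher with nutlin-3a and 4 lower, against 4.24% and 2.72% over all tested genes. The pocket proteins Rbl2 (p130) and Rb1, which hold E2F factors in check, were the higher ones. Rbl2 read 8.64, 8.75 and 8.66 with nutlin-3a against 8.12, 8.10 and 8.04 with 10058F4 (log2 difference 0.60, SE 0.06, adjusted p = 1.6e-05), with no overlap, and Rb1 was 0.46 higher (adjusted p = 0.013). The repressive E2F genes E2f7 (-1.43, adjusted p = 0.045) and E2f8 (-1.01, adjusted p = 0.038), the G1 kinase Cdk6 (-0.71, adjusted p = 0.043) and the inhibitor Cdkn1b (-0.52, adjusted p = 0.032) were lower. With any 1 array left out no gene of this list was called lower, 1 to 2 were called higher, and E2f7 lay below the filter level on all 3 nutlin-3a arrays. The D cyclins Ccnd1 (-0.22) and Ccnd3 (-0.13) and the activator E2f1 (0.06) were not called.

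Myc itself was lower with nutlin-3a than with the MYC inhibitor. It read 6.34, 6.61 and 6.57 with nutlin-3a and 7.41, 7.45 and 7.57 with 10058F4, so the groups did not overlap (log2 difference -0.97, SE 0.15, adjusted p = 0.0011). In M2 cells it read 7.47 ± 0.15 (SD, n = 3), from which 10058F4 differed by 0.0 (adjusted p = 1) and nutlin-3a by -0.96 (adjusted p = 0.00079). Of 16 tested genes of the MYC and MAX network, 2 were higher and 2 lower (3 and 2 with the block over 15 arrays), with a median of 0.02. Over all tested genes 4.24% were higher and 2.72% lower. Mxd1 and Mxd4, which compete with MYC for MAX, were higher by 0.34 (adjusted p = 0.022) and 0.28 (adjusted p = 0.0091). Mlxip, a glucose-sensing relative that pairs with MLX, was lower (-0.42, adjusted p = 0.0031), and Max was not called (0.19, adjusted p = 0.35). The Mxd1 call ended without nutlin-3a replicate 1 or 2 or 10058F4 replicate 2 or 3 (adjusted p up to 0.11), and its other probe sets differed by -0.02 and 0.30. Mxd4 was not called (adjusted p = 0.86) when only probe sets specific by suffix were used.

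Of 41 tested MYC targets and ribosome biogenesis genes, 3 were called lower with nutlin-3a and none higher, against 2.72% lower and 6.96% in either direction over all tested genes. The median was -0.03, and all 41 intervals lay within 2-fold; with the replicate number as a block over 15 arrays 1 was higher and 5 lower. Odc1, the rate-limiting enzyme of polyamine synthesis, had the largest difference, at 9.48, 9.49 and 9.44 with nutlin-3a and 9.93, 10.06 and 10.15 with 10058F4 (log2 difference -0.58, SE 0.08, adjusted p = 0.00034). Against M2 cells (9.03 ± 0.09) it was higher with both agents, by 0.44 and 1.02 (adjusted p = 0.002 and 7.7e-07). The cell cycle phosphatase Cdc25a (-0.38, adjusted p = 0.014) and the pseudouridine synthase Dkc1 (-0.37, adjusted p = 0.012) were the others. The Cdc25a call ended without nutlin-3a replicate 3 or 10058F4 replicate 1 or 2 (adjusted p up to 0.078). The nucleolar genes Ncl (-0.07), Npm1 (-0.05) and Fbl (0.04) were not called. Against M2 cells the list median was -0.03 with 10058F4, where 5 of 41 were called higher and 4 lower. Over all tested genes those shares were 10.6% and 10.2%. With nutlin-3a the median was -0.07, with 2 higher and 6 lower, against 9.56% and 5.85% over all tested genes. The E-box CACGTG, the letters that MYC with MAX is known to prefer, was in 12 of 35 windows of the tested targets (34.3%) and 11.2% of tested genes with a window. Of 22 ribosomal protein genes 1 was called, Rps27l, a p53-induced relative of Rps27, at 12.07, 12.12 and 12.13 with nutlin-3a against 11.36, 11.38 and 11.42 with 10058F4 (log2 difference 0.72, SE 0.06, adjusted p = 3.2e-06), and all 22 intervals lay within 2-fold.

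**Figure D3:**
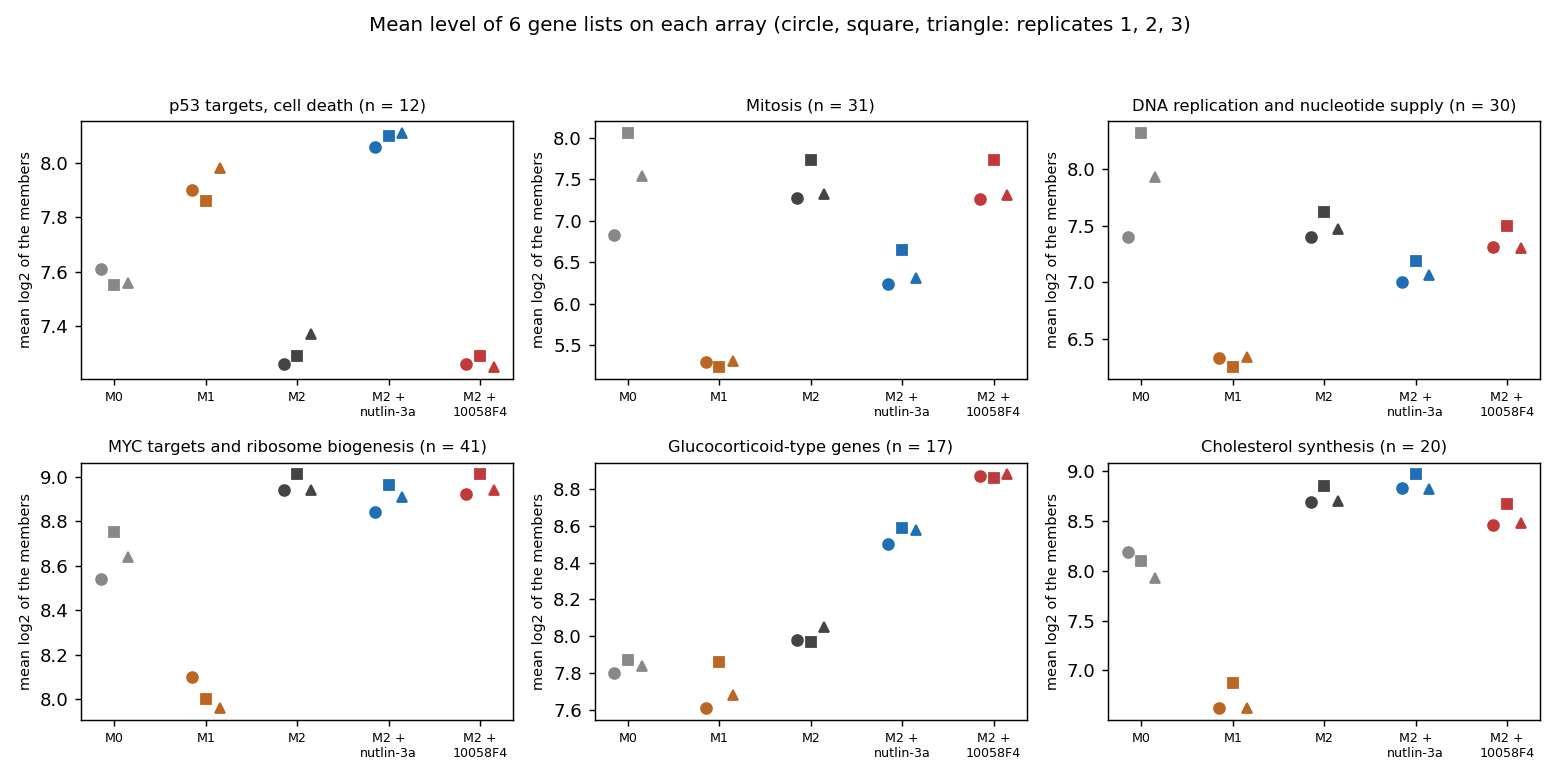
Mean log2 level (RMA) of the tested members of 6 gene lists on each of the 15 arrays; circles, squares and triangles are replicates 1, 2 and 3. Mitosis genes lie lower on the 3 nutlin-3a arrays than on the 3 10058F4 arrays, and p53 cell death targets lie higher; MYC targets lie between 8.84 and 9.01 on all 6 arrays.

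Glucocorticoid-type genes, transcripts that steroid hormones raise in many cells, were on average above M2 cells with both agents and highest with 10058F4. The list was chosen with earlier results of these data known, so its place above M2 cells is a description and not a test. Of 17 tested, 1 was higher with nutlin-3a and 6 were lower, against 4.24% and 2.72% over all tested genes, with a median of -0.28, and the list mean was 8.50, 8.59 and 8.58 with nutlin-3a, 8.87, 8.86 and 8.88 with 10058F4 and 7.98, 7.97 and 8.05 in M2 cells. Fkbp5, a chaperone partner of the glucocorticoid receptor, read 10.18, 10.09 and 10.04 with nutlin-3a and 12.26, 12.13 and 12.19 with 10058F4 (log2 difference -2.09, SE 0.15, adjusted p = 4.9e-07). The M2 level was 7.48 ± 0.16 (SD, n = 3), below all 6 arrays, with differences of 2.63 for nutlin-3a and 4.72 for 10058F4 (adjusted p = 5.4e-08 and 1.4e-10). Of its 2 other probe sets 1 differed by -2.30 and 1 by 0.06.

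The clock gene Per1 had the same order, at 7.79, 7.95 and 7.60 with nutlin-3a, 9.05, 8.96 and 8.92 with 10058F4 and 6.54 in M2 cells (log2 difference -1.20, SE 0.11, adjusted p = 6.6e-06). The Krüppel-like factor Klf9 was -0.82 from its 10058F4 level (adjusted p = 0.002), GILZ (Tsc22d3) -0.72 (adjusted p = 0.042), Zbtb16 -0.49 (adjusted p = 0.031) and the NF-kappa-B inhibitor Nfkbia -0.28 (adjusted p = 0.0034). With 1 array left out 4 to 5 members were called lower. Ddit4l, an inhibitor of mTOR signalling, went the other way, at 5.35, 5.95 and 5.97 with nutlin-3a against 4.24, 4.33 and 4.50 (log2 difference 1.40, SE 0.16, adjusted p = 5.5e-05), where 2 of the 3 10058F4 arrays lay below the filter level. Metallothionein genes Mt1 (-0.05) and Mt2 (-0.43) and the kinase Sgk1 (-0.33) were not called.

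Immediate early genes answer signals within minutes. Of 25 tested, 3 were higher with nutlin-3a and 2 lower, against 4.24% and 2.72% over all tested genes, and 20 were not called. The AP-1 subunit Fos read 8.43, 8.46 and 8.24 with nutlin-3a and 10.43, 10.30 and 10.24 with 10058F4 (log2 difference -1.94, SE 0.17, adjusted p = 5.1e-06). Nutlin-3a left it -0.04 from the M2 level of 8.41 (adjusted p = 0.92) and 10058F4 1.91 above it (adjusted p = 2.8e-06). Dusp1, the phosphatase that ends MAP kinase signals, read 9.41, 9.19 and 9.35 against 11.22, 11.04 and 11.30 (log2 difference -1.87, SE 0.13, adjusted p = 3.5e-07), and both agents were above its M2 level of 8.25, by 1.07 and 2.94 (adjusted p = 7.7e-05 and 2.1e-09). Ier5 was the largest of those higher, at 9.77, 9.60 and 9.67 against 8.62, 8.54 and 8.62 (log2 difference 1.09, SE 0.08, adjusted p = 5.6e-07), with 10058F4 -1.17 from M2 cells (adjusted p = 1.6e-07) and nutlin-3a -0.08 (adjusted p = 0.53). Junb (0.46, adjusted p = 0.00016) and Ier3 (0.40, adjusted p = 0.014) were higher by less. With the replicate number as a block over 15 arrays 3 were higher and 4 lower.

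Sla, an adaptor that damps signalling from immune receptors, had, with Pbk, the largest fall of the named genes. It read 8.40, 8.17 and 8.28 with nutlin-3a and 10.61, 10.43 and 10.38 with 10058F4, 4.57-fold lower with nutlin-3a (log2 difference -2.19, SE 0.12, adjusted p = 5.7e-08), and all 3 of its other probe sets were called in the same direction. Nutlin-3a was -0.28 from the M2 level of 8.56 (adjusted p = 0.15), and 10058F4 was 1.91 above it (adjusted p = 1.4e-07).

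The M2 state was marked in both groups by high levels of the IL-4 genes. Mrc1, the mannose receptor, read 13.07, 13.05 and 12.97 with nutlin-3a and 13.18, 13.26 and 13.19 with 10058F4, against 10.83 in M0 and 4.74 in M1 cells. It was not called between the agents (log2 difference -0.18, SE 0.27, adjusted p = 0.79), although their arrays did not overlap. Its SD was 0.05 with each agent and 0.81 over the M1 arrays, whose spread also enters the SE. Arginase 1 (Arg1) read 10.18, 10.75 and 10.62 against 9.81, 10.72 and 10.50 and was not called (log2 difference 0.18, SE 0.66, adjusted p = 0.93), although its 95% interval of -1.23 to 1.58 is wide. The SD of Arg1 was 0.30 with nutlin-3a, 0.47 with 10058F4 and 1.98 over the M1 arrays. The chitinase-like Chil3 had a difference of -0.45 (adjusted p = 0.19) and was not called either. Its arrays did not overlap between the agents, and its adjusted p in limma was 0.0047 to 0.46 over 19 alternative settings. Of 32 tested M2 markers 5 were higher with nutlin-3a and 5 lower (7 and 5 with the block over 15 arrays), against 4.24% and 2.72% over all tested genes, with a median of 0.06.

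Irf4, a transcription factor of the IL-4 programme, read 5.77, 5.85 and 5.94 with nutlin-3a and 4.88, 4.75 and 4.85 with 10058F4 (log2 difference 1.03, SE 0.09, adjusted p = 6.2e-06). Both agents were below the M2 level of 7.33 ± 0.14 (SD, n = 3), with differences of -1.48 and -2.50 (adjusted p = 1.5e-07 and 6.3e-10). Egr2, another IL-4-induced transcription factor, had the same order, at 10.69, 10.59 and 10.63 against 9.65, 9.58 and 9.56 (log2 difference 1.04, SE 0.10, adjusted p = 1.6e-05) with 11.08 in M2 cells. The resistin-like Retnla (0.99, adjusted p = 0.0031), the STAT5 feedback inhibitor Cish (0.61, adjusted p = 0.002) and the chemokine Ccl24 (0.56, adjusted p = 0.043) were the others higher with nutlin-3a. Klf4 read 8.53, 8.52 and 8.17 with nutlin-3a and 9.93, 9.72 and 9.54 with 10058F4 (log2 difference -1.32, SE 0.14, adjusted p = 3.3e-05), with nutlin-3a 0.02 and 10058F4 1.34 from M2 cells (adjusted p = 0.95 and 1.3e-05). Klf4 did not mark M2 cells alone here: it averaged 10.46 in M1, 8.39 in M2 and 6.59 in M0 cells. The lectin Clec10a read 7.91, 8.01 and 7.45 against 9.02, 8.93 and 8.53 (log2 difference -1.03, SE 0.17, adjusted p = 0.0018). Socs2 (-0.92, adjusted p = 0.00037) and the chemokine Ccl17 (-0.62, adjusted p = 0.0045), with Myc, were the remaining lower members. With 1 array left out 4 were higher and 5 lower.

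Of 26 tested M1 markers, 8 were higher with nutlin-3a and none lower, against 4.24% and 2.72% over all tested genes, with a median of 0.18. Cd80, a costimulatory ligand for T cells, read 6.23, 6.43 and 6.50 with nutlin-3a and 4.83, 4.94 and 4.68 with 10058F4 (log2 difference 1.57, SE 0.12, adjusted p = 1.1e-06), and nutlin-3a was 1.42 above M2 cells (adjusted p = 3.9e-06). Of its 3 other probe sets 2 were called in the same direction and 1 differed by -0.06. The cytokine Il15 read 7.54, 7.60 and 7.56 against 6.64, 6.70 and 6.64 (log2 difference 0.91, SE 0.08, adjusted p = 3.6e-06), the receptor Tlr2 8.02, 7.99 and 8.09 against 7.33, 7.20 and 7.26 (log2 difference 0.77, SE 0.09, adjusted p = 0.00012), and the interferon regulator Irf1 10.83, 10.70 and 10.81 against 10.03, 10.07 and 10.11 (log2 difference 0.71, SE 0.08, adjusted p = 5.5e-05). For Il15, Tlr2 and Irf1 both agents lay below the M2 level, with differences for 10058F4 of -1.25, -1.61 and -0.99 and for nutlin-3a of -0.34, -0.84 and -0.28. Not all of these genes marked M1 cells here. Cd80 and Tlr2 averaged 5.47 and 8.31 in M1 cells, below their M0 levels of 5.72 and 9.87. Il15 and Irf1 were highest in M1 cells, at 11.44 and 12.76, against 8.88 and 9.96 in M0 cells. Ptgs2 (0.68), Acod1 (0.67), Cd40 (0.56) and Tnf (0.56) were higher too, with Ptgs2 near the filter level (means 4.47 and 3.79). Nos2 (0.0), Il6 (-0.14) and Il1b (0.01) were not called. With nutlin-3a replicate 3 or 10058F4 replicate 3 left out, 5 markers were called.

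Counts for the other inflammatory and interferon lists also stand against 4.24% higher and 2.72% lower over all tested genes. Of 16 inflammatory chemokines none was called in limma (3 had an unadjusted p under 0.05), with Ccl3 at 0.61 (adjusted p = 0.27) and Ccl9 at -0.42 (adjusted p = 0.086). Of 10 chemoattractant receptors 1 was, the chemerin-binding Ccrl2, at 7.57, 7.58 and 7.60 with nutlin-3a against 7.18, 6.86 and 7.02 (log2 difference 0.57, SE 0.10, adjusted p = 0.002). Among 26 type I interferon-stimulated genes 2 were higher and 2 lower. The antiviral Mx1 read 6.61, 5.93 and 6.13 with nutlin-3a and 5.17, 4.58 and 4.50 with 10058F4 (log2 difference 1.47, SE 0.20, adjusted p = 0.00039), without overlap, while Ifit1 (-0.70, adjusted p = 0.028) and Cmpk2 (-0.64, adjusted p = 0.02) were lower. Leaving out nutlin-3a replicate 2, 10058F4 replicate 1 or 10058F4 replicate 3 ended both lower calls, and the block over 15 arrays gave 3 higher and 6 lower. The interferon-induced GTPases Gbp7 (0.70, adjusted p = 0.0027) and Ifi47 (0.63, adjusted p = 0.016) were 2 of 9 higher (3 with the block over 15 arrays), the Ifi47 call ending without any 1 of 4 arrays (adjusted p up to 0.08). In class I presentation the immunoproteasome subunits Psmb10 (0.54, adjusted p = 0.00018) and Psmb9 (0.36, adjusted p = 0.045) were 2 of 11 higher, and both agents were below M2 cells for Psmb10, with differences of -0.46 and -1.0. The Psmb9 call ended without any 1 of 5 arrays (adjusted p up to 0.17), and 4 of 11 were higher with the block over 15 arrays. None of 10 class II genes was called in limma (3 had an unadjusted p under 0.05, and 1 was higher with the block over 15 arrays), and all 10 intervals lay within 2-fold.

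Of 20 tested genes of cholesterol synthesis, 7 were called higher with nutlin-3a and none lower, against 4.24% and 2.72% over all tested genes. The other 13 were not called, all 20 differences were positive, and the median was 0.3 against 0.01 over all genes. The list mean was 8.83, 8.97 and 8.82 with nutlin-3a, 8.46, 8.67 and 8.48 with 10058F4 and 8.69, 8.85 and 8.70 in M2 cells. Idi1, an isomerase of the isoprenoid steps, read 10.06, 10 and 9.94 against 9.43, 9.65 and 9.35 (log2 difference 0.52, SE 0.11, adjusted p = 0.008), and Mvd, which makes the isoprenoid unit from mevalonate, 8.27, 8.61 and 8.34 against 7.71, 8.03 and 7.61 (log2 difference 0.63, SE 0.14, adjusted p = 0.016). Hmgcs1, an early enzyme of the pathway, was 0.33 higher (adjusted p = 0.041). Fdps (0.46), Cyp51 (0.45), Hsd17b7 (0.41) and Msmo1 (0.36) were also called (another Fdps probe set differed by -0.07), and Srebf2, the regulator, was not (0.10, adjusted p = 0.61). The count fell to 1 without nutlin-3a replicate 2 or 10058F4 replicate 1 and to 2 without 10058F4 replicate 3, was 9 without 10058F4 replicate 2, and was 11 with the block over 15 arrays.

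On the list of LXR and PPAR targets and fatty acid synthesis, 7 of 26 were lower with nutlin-3a (8 with the block over 15 arrays) and none higher, against 2.72% lower over all tested genes, with a median of -0.02. Several called members act in lipid export and storage. Angptl4, a secreted inhibitor of lipoprotein lipase, read 6.02, 5.86 and 6.20 with nutlin-3a and 7.63, 7.91 and 8.17 with 10058F4 (log2 difference -1.87, SE 0.14, adjusted p = 8.2e-07), on either side of its M2 level of 6.91; its other probe set differed by 0.05. The cholesterol exporters Abca1 and Abcg1 read 9.47, 9.41 and 9.18 against 10.39, 10.16 and 10.21 (log2 difference -0.90, SE 0.16, adjusted p = 0.0031) and 11.05, 10.89 and 11.05 against 11.71, 11.60 and 11.78 (log2 difference -0.70, SE 0.11, adjusted p = 0.001). Against M2 cells, nutlin-3a differed by -1.12 and -0.49 (adjusted p = 0.00042 and 0.0078) and 10058F4 by -0.22 and 0.21 (adjusted p = 0.4 and 0.21). Plin2, the coat protein of lipid droplets, read 12.37, 12.40 and 12.52 against 13.09, 13.25 and 13.25 (log2 difference -0.77, SE 0.10, adjusted p = 0.00031), with 10058F4 0.93 above M2 cells (adjusted p = 2.1e-05). Mylip (-0.47), the scavenger receptor Cd36 (-0.40) and Elovl5 (-0.21) were lower by less. With any 1 array left out 4 were called lower, and with only specific probe sets 4 of 21 tested. The synthesis genes Fasn (0.37, adjusted p = 0.061) and Scd2 (0.92, adjusted p = 0.11) were not called.

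Of 31 genes of the ATF4 and amino acid response, 7 were higher with nutlin-3a (8 with the block over 15 arrays) and none lower, against 4.24% higher over all tested genes, with a median of 0.2, and all 31 intervals lay within 2-fold. Atf4 itself read 11.01, 11.03 and 10.99 with nutlin-3a and 10.56, 10.60 and 10.59 with 10058F4 (log2 difference 0.43, SE 0.11, adjusted p = 0.029), and both agents were above M2 cells, by 0.79 and 0.36 (adjusted p = 0.0003 and 0.03). Chac1, which degrades glutathione, was 0.63 higher (adjusted p = 0.016) and the stress factor Ddit3 (CHOP) 0.41 (adjusted p = 0.015). The count was 4 without nutlin-3a replicate 1 or 3 or 10058F4 replicate 2, 2 without 10058F4 replicate 1, and 1 without nutlin-3a replicate 2 or 10058F4 replicate 3; the Atf4 call ended with any array left out (adjusted p up to 0.1). In the unfolded protein response 1 of 22 genes was higher and 3 were lower (1 and 4 with the block over 15 arrays), against 4.24% and 2.72% over all tested genes. The 3 lower ones were chaperone and degradation genes of the endoplasmic reticulum. Dnajb9 read 10.04, 10 and 10.03 against 10.50, 10.47 and 10.48 (log2 difference -0.46, SE 0.06, adjusted p = 0.00039), Edem1 was -0.36 (adjusted p = 0.0023) and Manf -0.31 (adjusted p = 0.0016), while the central chaperone Hspa5 was not called (-0.11, adjusted p = 0.34).

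Several other pathways held single genes apart, and their counts stand against 4.24% higher and 2.72% lower over all tested genes. Ahrr, the repressor of the aryl hydrocarbon receptor, read 8.56, 8.35 and 8.23 with nutlin-3a and 7.34, 7.39 and 7.24 with 10058F4 (log2 difference 1.05, SE 0.11, adjusted p = 3.8e-05), and 4 of 12 genes of that list were higher and none lower. Among 17 clock genes 2 were higher, led by the repressor Bhlhe40 at 10.07, 10.16 and 10.32 against 9.11, 9.38 and 9.38 (log2 difference 0.89, SE 0.18, adjusted p = 0.0076), and 3 lower, among them Nr1d2 (-0.41, adjusted p = 0.0037); without 10058F4 replicate 1, 1 was higher and 1 lower. Of 17 NRF2 targets 1 was higher and 2 lower: glutathione reductase (Gsr) had a difference of -0.35 (adjusted p = 0.0044), and the cystine transporter Slc7a11 of -0.79 (adjusted p = 0.044), with overlapping groups and a call that ended without any 1 of 5 arrays (adjusted p up to 0.19). Arg2, the mitochondrial arginase, read 8.40, 8.17 and 8.10 with nutlin-3a and 9.12, 8.94 and 8.72 with 10058F4 (log2 difference -0.70, SE 0.17, adjusted p = 0.024), with both agents above M2 cells by 1.26 and 1.97 (adjusted p = 0.00027 and 2.5e-06); without nutlin-3a replicate 2 or 3 or 10058F4 replicate 1 or 2 it was not called (adjusted p up to 0.11). The iron importer Slc11a2 was higher, at 7.88, 8.10 and 7.98 against 7.49, 7.54 and 7.36 (log2 difference 0.53, SE 0.08, adjusted p = 0.0013).

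Counts for core metabolism and housekeeping stand against the 6.96% called over all tested genes. In limma, 1 of 28 genes of the TCA cycle and respiratory chain was called, Sdhb (0.20, adjusted p = 0.043), 1 of 26 of glycolysis and hypoxia, P4ha1 (0.26, adjusted p = 0.042), 1 of 21 of fatty acid oxidation, the carnitine transferase Cpt1a (-0.48, adjusted p = 0.021), 2 of 31 of lysosome and autophagy, Ulk1 (0.28) and Tfe3 (0.22), and none of 14 heat shock genes (0 at an unadjusted p under 0.05). With the block over 15 arrays 2 genes of glycolysis and 2 of fatty acid oxidation were called. Leaving out 1 array ended the Sdhb and Tfe3 calls for all 6 arrays, the P4ha1 and Cpt1a calls for 5 and the Ulk1 call for 3. All intervals lay within 2-fold for the TCA cycle, oxidation, lysosome and heat shock lists. Of 20 macrophage identity genes, the efferocytosis receptor Mertk was lower and the lineage factor Spi1 (PU.1) higher (1 higher and 2 lower with the block over 15 arrays). Mertk read 10.10, 10.12 and 10.01 with nutlin-3a and 10.94, 10.88 and 10.96 with 10058F4 (log2 difference -0.85, SE 0.09, adjusted p = 4.2e-05), both above the M2 level of 8.78 (adjusted p = 7.6e-07 and 2.1e-09). Spi1 read 9.39, 9.46 and 9.47 against 8.99, 9.13 and 9.11 (log2 difference 0.36, SE 0.07, adjusted p = 0.0041), both below the M2 level of 9.84 (adjusted p = 0.0013 and 2.6e-06).

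**Figure D4:**
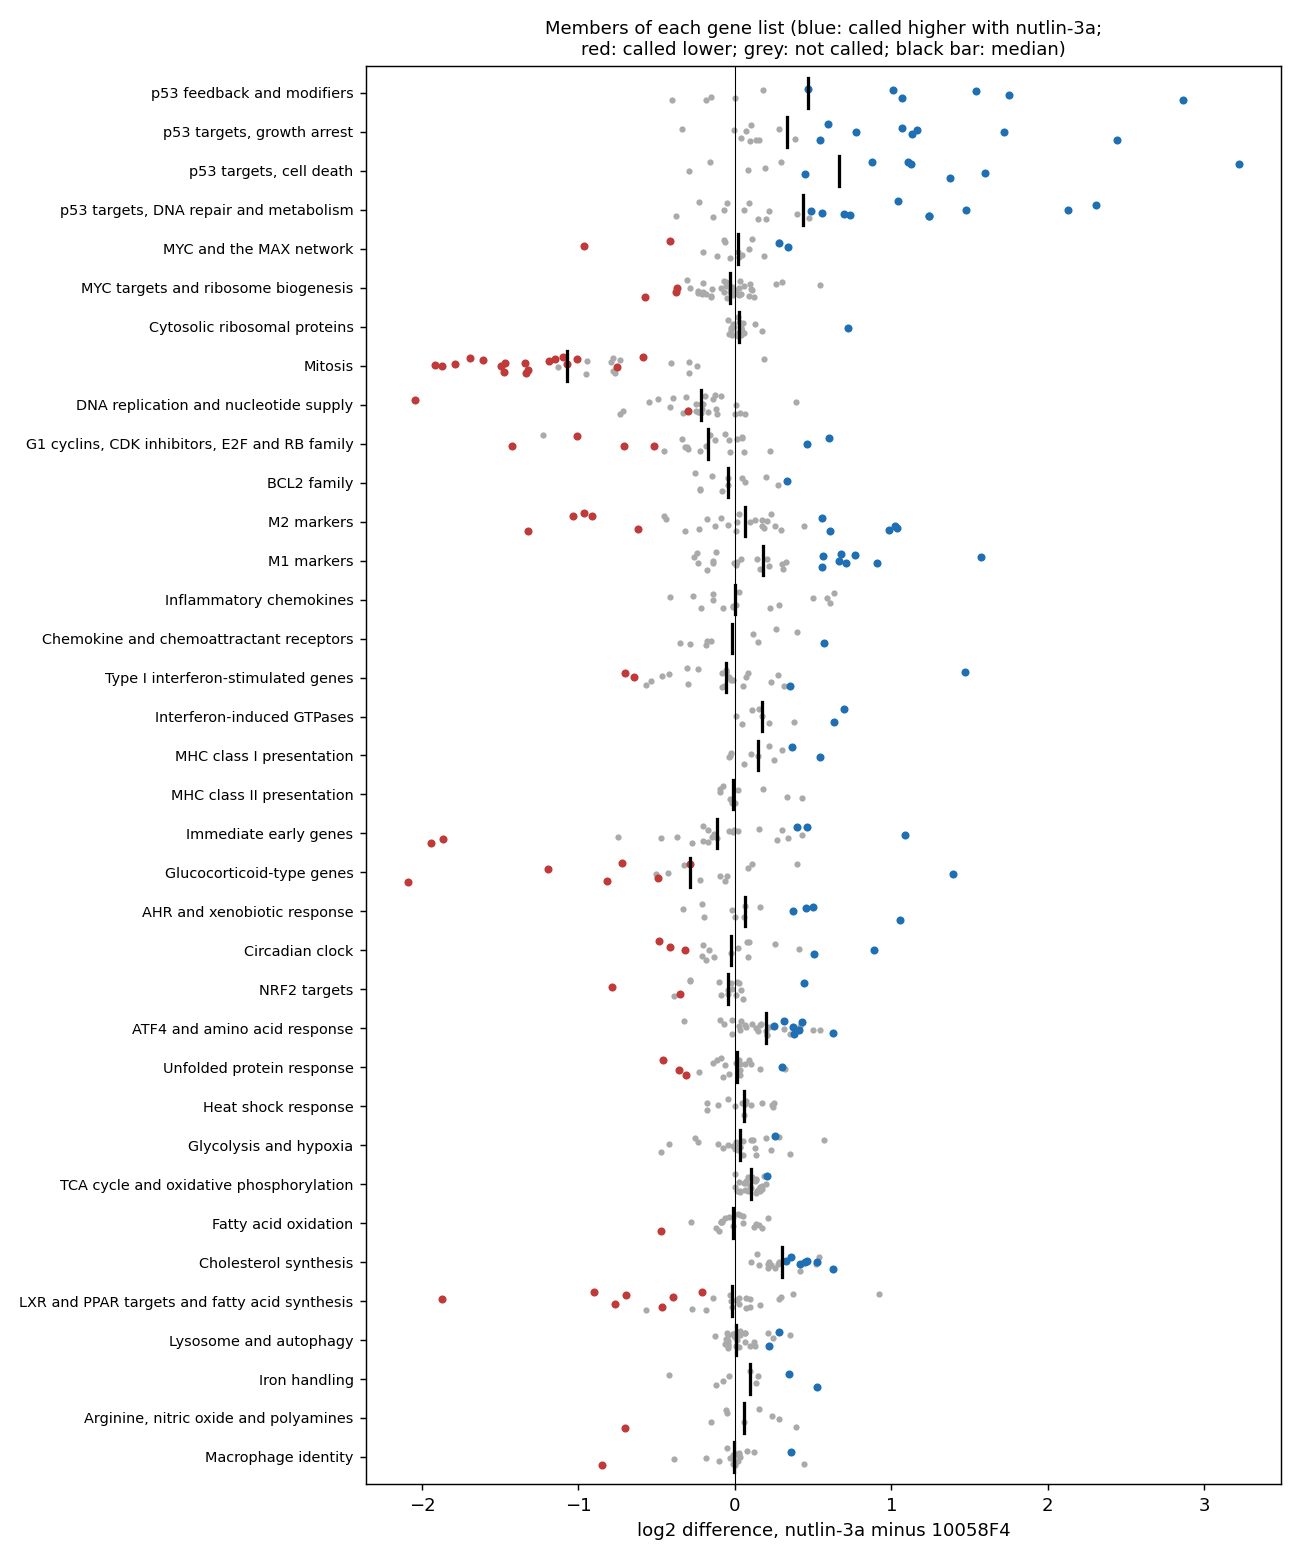
Log2 differences, nutlin-3a minus 10058F4, of the tested members of each gene list, 1 point per gene, coloured where called at an adjusted p under 0.05 in limma; the black bar is the list's median. The 4 p53 lists reach from -0.41 to 3.22 with called points on the right side, mitosis genes reach from -1.92 to 0.19 with called points on the left, and most other lists centre near 0.

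Genes were represented by 1 probe set, and other probe sets bear on the calls. Of 586 called genes with further probe sets, 473 had all of them on the same side, 252 had at least 1 called the same way, and none had probe sets called in both directions. Mdm2, Cdkn1a, Ccng1, Slc19a2, Psrc1 and Rrm2 were among those with every other probe set called the same way. Sizes could still differ, as for Mdm2, whose other probe sets differed by 0.41 and 2.09. For some genes described above the other probe set lay on the same side but was much smaller and not called. These included Ak1 (0.31), Irf4 (0.22), Bub1 (-0.42), Nusap1 (-0.19) and Anln (-0.48).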

How the data were processed

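The authors deposited log2 values for the probe sets of 15 arrays; RMA is named, without a version, in the submitters' processing notes. RMA forces arrays to one distribution, so a shift of most genes would be hidden. Of 45101 probe sets (64 controls), the platform annotation named 1 gene for 34945, several for 932 and none for 9160. Symbols were updated through 34741 gene IDs of RefSeq GRCm38.p6. For each of 18193 genes the probe set whose mean over 15 arrays was highest stood for the gene. The 13703 genes that exceeded an array's 40th percentile in 3 arrays or more were tested. limma 3.58.1 (R 4.3.3; lmFit, eBayes) fitted 5 group means to 15 arrays with 10 residual and 3.86 prior degrees of freedom, p-values were adjusted by Benjamini-Hochberg over all tested genes, and the method was tested on simulated data. In that simulation, with noise drawn independently for each array, 13 of 160 calls were false. It recovered 34% of genes changed 1.25-fold and 98% of those changed 2-fold. Having 3 arrays per group limits precision.

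Members and the 43 lists (900 genes, 768 tested) were chosen with earlier results of these data known. The naming rule listed Mdm2, Cdkn1a, Myc and Trp53, but Trp53 was not analysed. It also took the 15 largest rises and falls among called genes without overlap (no clone or model names). Per list it took up to 4 called members with the largest difference, or, with fewer than 2 called, the 2 with the smallest p. Further members are given by value only. Markers such as Csf1r and Mrc1 were added. Replicate numbers recur in all groups, without the titles saying what they share. Deviations of same-numbered arrays of the agents from their group means correlated at 0.34, 0.41 and 0.36 (other pairs -0.24 to -0.12), above the limit of 0.1 for pairing, so a replicate block is given beside the list counts that it changes. Calls, SE and adjusted p of single genes come from the fit without the block. Python 3.11.15, pandas 2.3.3 and matplotlib 3.10.9 were also used.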

Additional observations from a re-analysis of the deposited data

How the results depend on the processing

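Counts of called genes depended on how the spread was estimated, and the cause was not tested. Higher with nutlin-3a and lower were 875 and 608 genes with the 6 arrays alone, 1272 and 772 with array weights, 742 and 490 with the replicate block over 15 arrays, and 1100 and 792 with the replicate block over 6 arrays, against 581 and 373. Leaving out 1 array gave 339 to 464 and 213 to 258, with fewer samples in the fit: higher calls were 339 without nutlin-3a replicate 2, 354 without 10058F4 replicate 1 and 350 without 10058F4 replicate 3, and lower calls 213 without 10058F4 replicate 1, 221 without nutlin-3a replicate 3, 233 without 10058F4 replicate 2, 239 without 10058F4 replicate 3 and 245 without nutlin-3a replicate 2. Genes at least 2-fold lower (70) were 45 with the mean of all probe sets and 44 to 63 with 1 array left out, 44 being without nutlin-3a replicate 1; genes at least 2-fold higher were 63 to 69. Of the called genes 60.9% were higher, 67.6% after centring arrays on their median (669 and 320) and 50.8% after quantile normalization again (487 and 472). Those scalings moved the median difference from 0.011 to 0.035 and -0.006. Of the 954 calls, 945 were also made with the block over 15 arrays, 901 after centring and 837 after renewed quantile normalization. Of 113 called named genes 78 were called under all 19 alternatives that gave a value, and none changed direction while called; leaving out 1 array ended 18 to 28 calls, no filter on low values 8, the mean of all probe sets 9, renewed quantile normalization 6, the 6 arrays alone 5, and the replicate block 0 over 15 arrays and 3 over 6. Signal near the filter level limits Esco2, Depdc1a, Cenpf, E2f7, Ddit4l, Cpt1c and Ptgs2.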
